A study of Drosophila melanogaster with 2 samples.

Results

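The dpr and DIP genes of Drosophila melanogaster encode 2 families of neuronal cell surface proteins that bind each other. Members were taken from the RefSeq release 6 gene table as symbols made of dpr and a number or beginning with DIP-, which gave 21 dpr genes and 11 DIP genes, or 32 of the 17684 genes on the chromosome arms. The rule uses no measured value. Open chromatin at these genes was measured by ATAC-seq, in which a transposase cuts accessible DNA, in nuclei of the adult mushroom body (MB), the memory centre of the fly brain. Naive control flies were the only condition, in 2 biological replicates, and no groups could be compared. Flies carried UAS-unc84::2xGFP, a GFP-tagged nuclear envelope protein, opposite the temperature-sensitive repressor tubGal80(ts), and a P{VALIUM20-mCherry.RNAi}attP2 control transgene opposite R14H06-Gal4, in a w* background. R14H06-Gal4 uses an enhancer of the adenylyl cyclase gene rutabaga, and the paper describes it as specific to the MB. The lists are averages over the MB neurons it marks, and its coverage of each type of these neurons was not tested. Each replicate was a pool of 50 to 60 flies per the labels, and the age of the flies was not given in the sources used here. The paper describes its pools for isolating MB nuclei as male flies.

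Dpr proteins are small members of the immunoglobulin superfamily, named after defective proboscis extension response, the phenotype of the founding gene dpr1. DIPs, the Dpr-interacting proteins, are related immunoglobulin proteins, and each Dpr binds 1 or a few DIPs through its outermost immunoglobulin domain. Neurons express different combinations of both families, and matched pairs help pre- and postsynaptic partners to find each other, as shown best in the fly visual system and at the neuromuscular junction. In the MB, Dpr12 in γ neurons and its partner DIP-δ in dopaminergic neurons are needed for the far end of the γ lobe to form during metamorphosis. These points are background, and no protein or transcript was measured here.

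A peak is a stretch of DNA that the authors' peak caller, MACS2, found to hold more fragments than its surroundings, and its fold enrichment is how many times its summit exceeds the local background. Replicate 1 had 17942 peaks and replicate 2 had 15248, and regions of overlapping peaks that held at least 1 peak of each replicate made 14656 consensus peaks. Read counts are not part of the lists, so that the depth behind a peak is unknown and no interval can be given for its value. As a check of the tissue, a consensus peak lay within 500 bp of an end at all 11 listed genes of Kenyon cells, the intrinsic MB neurons, and at all 3 neuronal genes. The same was found at 1 of 4 glial genes, 3 of 7 photoreceptor genes and none of 4 fat body and muscle genes. Of all genes, 60.6% had such an end peak, as did 87.8% of those of at least 20 kb. The lists were not matched for length. Strength did not separate the lists. The end peak of the opsin gene Rh3 had a mean fold enrichment of 6.84, and of the Kenyon cell genes, which began at 3.28 (ey), only toy was higher, while norpA had 3.99, Rh5 2.45 and the glial gene moody 3.02. Of the remaining glial and photoreceptor genes, Gs2 had 3 consensus peaks and Rh4 had 1, all away from the ends, and repo, alrm, ninaE, Rh6 and chp had none. The share of nuclei of other cells in the samples was not tested.

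Consensus peaks were found in or within 500 bp of 30 of the 32 dpr and DIP genes (93.8%). Of all genes, 62.3% had one, but longer genes have more room for peaks, and the dpr and DIP genes had a median length of 32526 bp against 1710 bp for all genes. When each length class of all genes was weighted as it occurs among the members, the share was 91.9%, or 29.4 of 32 genes, so that having a peak at all was near the background. All 21 dpr genes and 9 of 11 DIP genes had a consensus peak. Together they held 114 consensus peaks, and none of these was counted for more than 1 member. The number per gene ran from 0 to 18 with a median of 2, and the 5 genes with the most peaks held 49.1% of them. The map of peaks along each gene shows this spread.

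**Figure D1:**
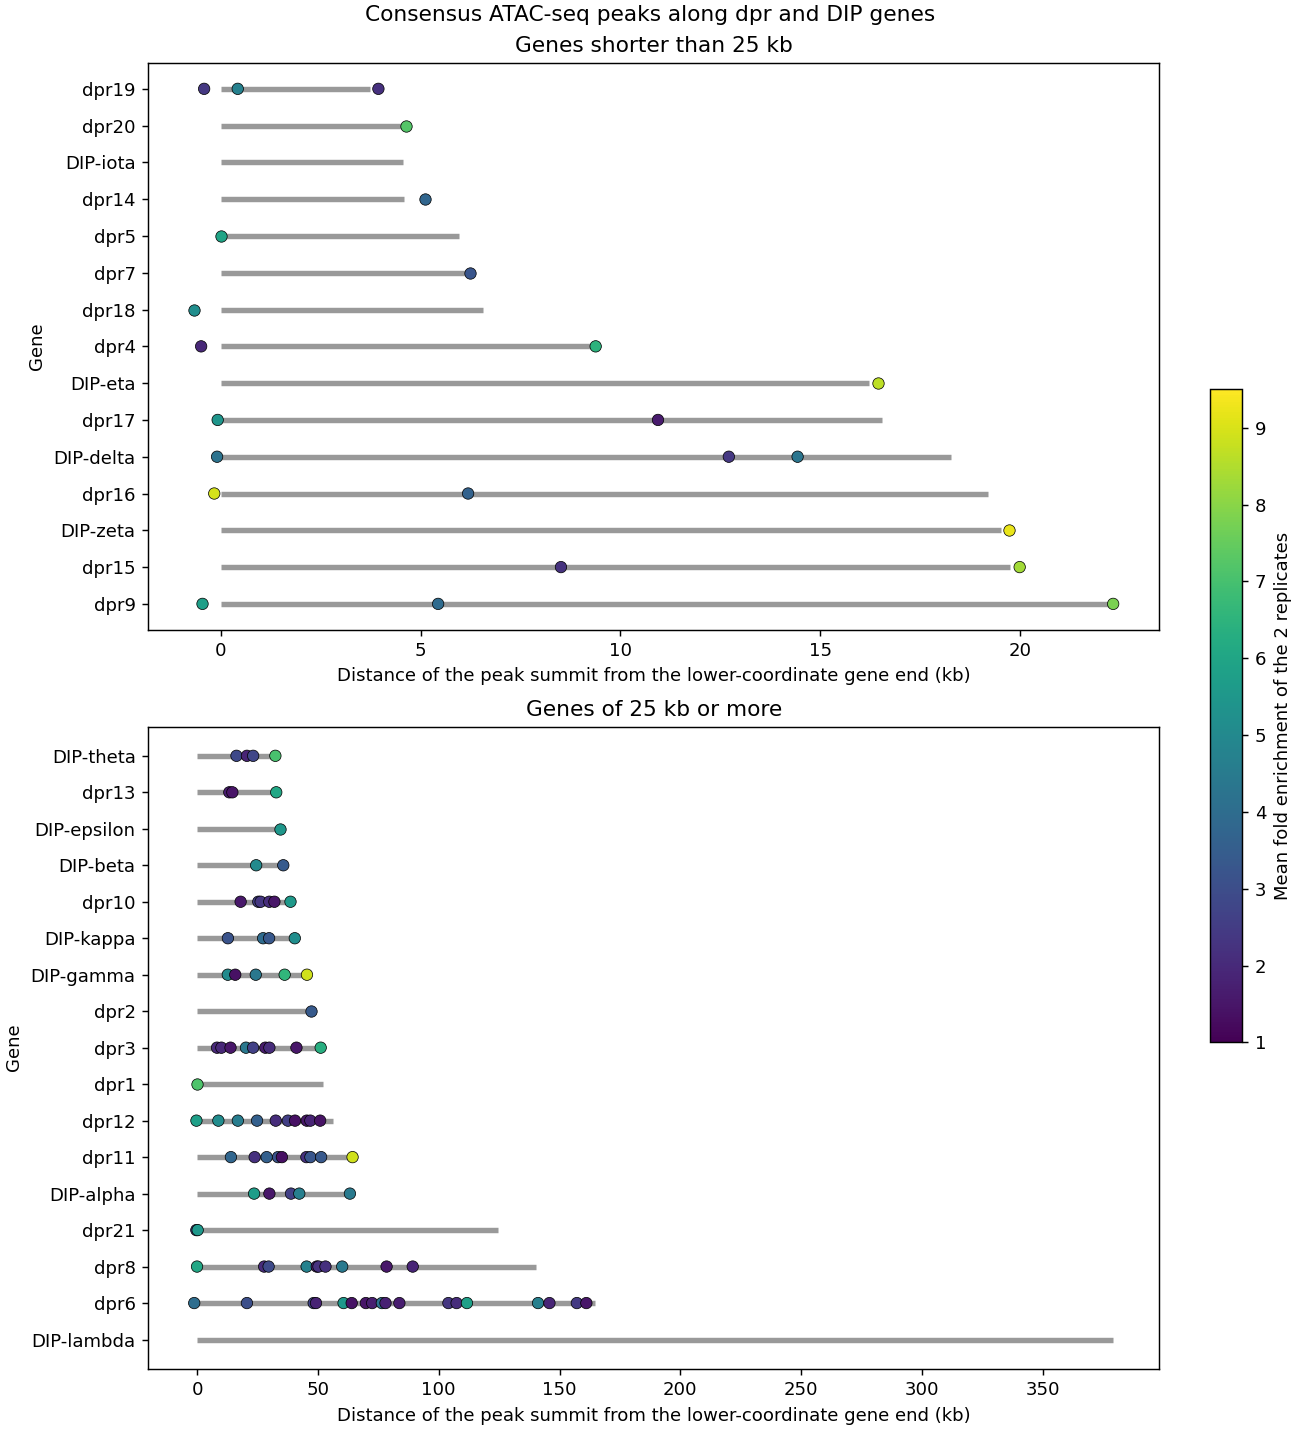
Each grey line is a gene span drawn to its length in kb from its lower-coordinate end, and each circle is the mean summit position of a consensus peak, coloured by the mean fold enrichment of the 2 replicates. A peak counted near an end can have its summit further out, as at dpr14 and dpr18. Most genes have their brightest circle at one end, DIP-iota and DIP-lambda have none, and dpr1 and dpr21 are long spans with circles at one end alone.

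The most regular feature was an open site at a gene end. All 30 genes with a peak had one no more than 500 bp from an end (93.8% of the 32 genes), against 60.6% of all genes and 84.2% after weighting by length. Among all 11017 genes with a peak, 10715 had one there, so that an end peak was also usual outside these families. In 27 genes the peaks lay at one end alone, at the lower-coordinate end in 10 and at the higher-coordinate end in 17. The gene table gives no strand, so that the transcription start site could not be told from the other end. Only dpr4, dpr9 and dpr19 had peaks at both ends, which is 3 of 32 genes (9.38%) against 24.2% of all genes and 25.3% after weighting by length. At dpr4 the 2 ends were unequal in both replicates, with a fold enrichment of 6.59 and 6.33 at the higher-coordinate end and 2.01 and 1.85 at the other. At dpr9 the corresponding values were 7.73 and 7.87 against 5.53 and 5.97.

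These end peaks were strong. Over the 35 end peaks the median of the mean fold enrichment was 5.55 (range 1.93 to 9.23), whereas the end peaks of all genes had a median of 3.31 and those of all genes of at least 20 kb a median of 4.28. Of the 35, 26 (74.3%) lay above the upper quartile of all consensus peaks, 4.11, and none below the lower quartile, 1.80. These quartiles also count the weaker peaks inside genes. The median end peak of all genes of at least 20 kb, 4.28, lay above 4.11 as well, and the share of all end peaks above 4.11 was not computed. The strongest end peak of each gene was then ranked among genes of the same length class, and 23 of 30 members (76.7%) lay above the median of their class, against 50% of all genes with an end peak. This held for 17 of 21 dpr genes and 6 of 9 DIP genes. Of the 30 genes, 9 lay above percentile 90 of their class. End peaks are often shared by neighbouring genes. With only end peaks that lay near an end of 1 gene alone, 19 of the 21 members that kept one lay above the median of their class, against 49.9% of all genes that kept one. This ranking was chosen after the values had been seen and is given without a test.

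The 5 genes with the strongest peak all had it at a gene end. The only peak of DIP-zeta, on 2L from 9071053 to 9071861, crosses the higher-coordinate end and reached 9.21 in replicate 1 and 9.25 in replicate 2. At dpr16 the peak on 3R from 5150494 to 5151739 reached 8.73 and 9.20. The end peak of dpr11, on 3R from 6592831 to 6594079, reached 8.74 and 9.04, and that of DIP-gamma, on 3R from 28969658 to 28971070, reached 8.84 and 8.93. DIP-eta had 8.83 and 8.50 in its only consensus peak, on 2L from 5617111 to 5618541. The end peaks of DIP-zeta and DIP-gamma each also lie at an end of a long non-coding RNA gene. Over all member peaks the ratio of replicate 1 to replicate 2 ran from 0.852 to 1.23, so that the order among these 5 genes is within the spread of the replicates, while each stood above the weakest end peaks by far more. The weakest among the genes' best end peaks were those of dpr7, on chromosome 4, with 3.40 and 3.05, of dpr2 with 3.38 and 3.34, and of DIP-beta with 3.62 and 3.17.

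**Figure D2:**
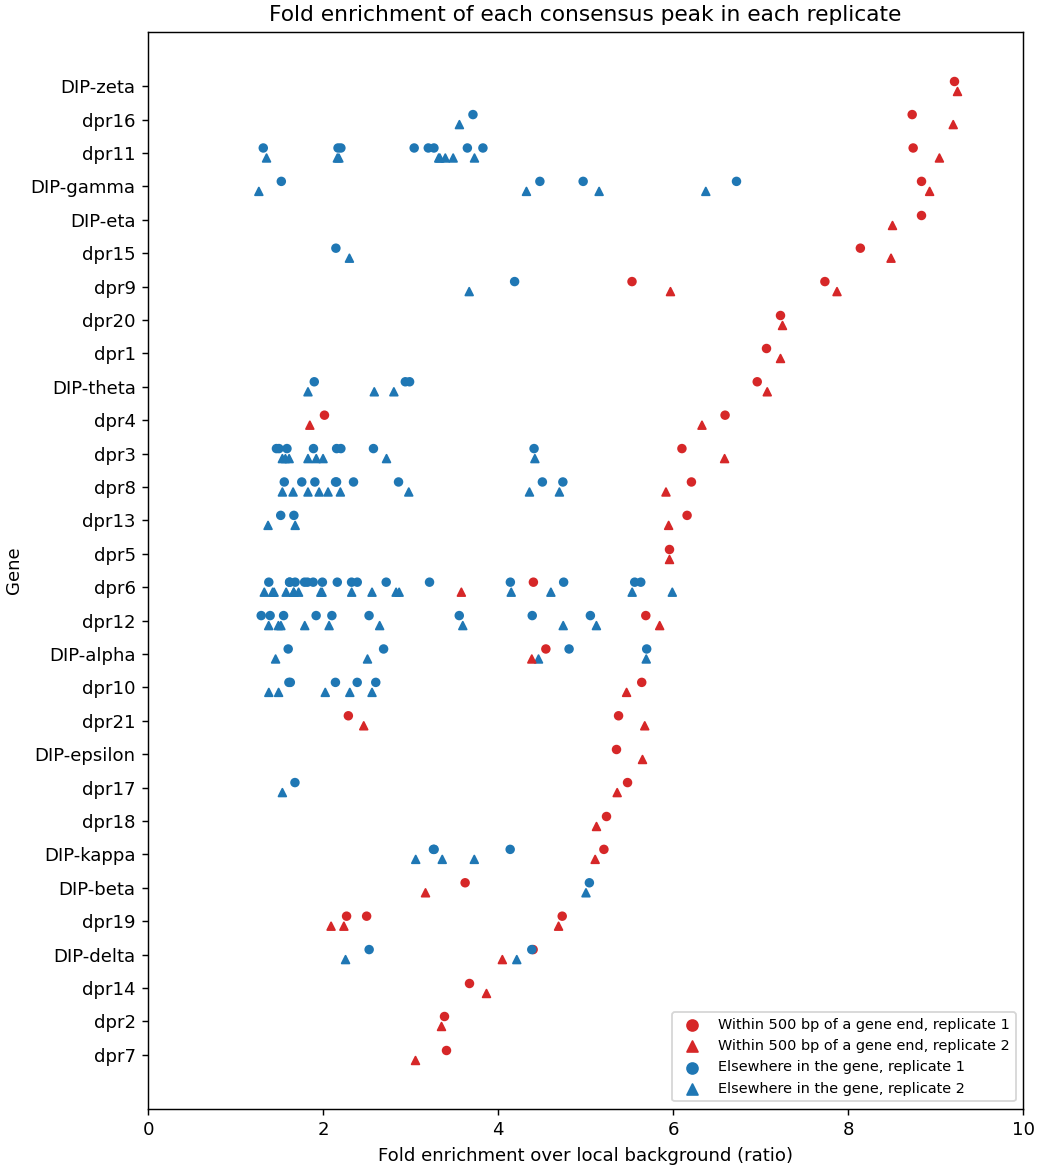
Each symbol is the fold enrichment of a consensus peak in replicate 1 (circle) or replicate 2 (triangle), red within 500 bp of a gene end and blue elsewhere, with genes ordered by their strongest peak. In dpr6, DIP-alpha, DIP-beta and DIP-delta a blue symbol lies furthest right, judged by the mean of the replicates, and in the other genes, some of which have no blue symbols, a red one does.

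Away from the ends, 79 consensus peaks lay inside the genes, with a median mean fold enrichment of 2.35 (range 1.33 to 6.55) against 2.14 for the peaks inside all genes. These 2 medians are not alike in scope. The value for all genes leaves out peaks near an end of any gene, whereas 9 of the 79 lay at another gene's end. The 79 peaks were narrower than end peaks, with a median width of 763 bp against 1404 bp, and of these peaks 16 (20.3%) lay above that upper quartile and 22 (27.8%) below that lower quartile. In 17 genes that had both an end peak and an inside peak, the strongest end peak exceeded the strongest inside peak in 13, in each case by more than 10% in both replicates (76.5%). Of all genes with both kinds of peak, 68.1% had the higher value at the end, and 59.8% by more than 10% in both replicates, or 60.2% and 51.9% after weighting by length. At DIP-alpha, DIP-beta and dpr6 an inside peak was higher in both replicates. At DIP-delta the order differed between the replicates, so that its end peak and its strongest inside peak could not be told apart. The inside peaks above the upper quartile came from 8 genes, namely dpr3, dpr6, dpr8, dpr12, DIP-alpha, DIP-beta, DIP-delta and DIP-gamma.

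The number of peaks was next read against gene length. Genes were put into 8 classes with bounds of 1, 2, 5, 10, 20, 50 and 100 kb, and each member was compared with the median of its class. Of the 32 members, 9 (28.1%) had more peaks than that median, against 29.4% of all genes and 41.6% after weighting by length, and 13 (40.6%) had fewer, against 21.9% and 35.3%. Among the 18 members of at least 20 kb, 12 had a peak more than 10 kb from both ends (66.7%), against 65.0% of all genes of that length. Of all genes 3.82% had such a deep peak. Summed over the extended spans, dpr genes held 0.966 and DIP genes 0.371 consensus peaks per 10 kb. The latter rests on DIP-lambda, the longest member, which has no peak, and without it DIP genes held 0.812 per 10 kb. All genes of at least 20 kb, with those without a peak kept, held 1.12 per 10 kb. Members of that length held 0.645, or 0.876 without DIP-lambda. By length class, members held 0.860 against 1.38 for all genes of 20 to 50 kb, and 1.16 against 1.19 at 50 to 100 kb. At 100 kb or more, with DIP-lambda, they held 0.369 against 0.670. Length and peak number went together across the 32 members (Spearman's rho 0.50) as across all genes (0.54), and without DIP-lambda rho was 0.65 across the other 31. Within the 18 members of at least 20 kb it was 0.26, and 0.49 without DIP-lambda, beside 0.48 over all genes of that length. These are descriptions across genes, which share libraries and are not independent.

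**Figure D3:**
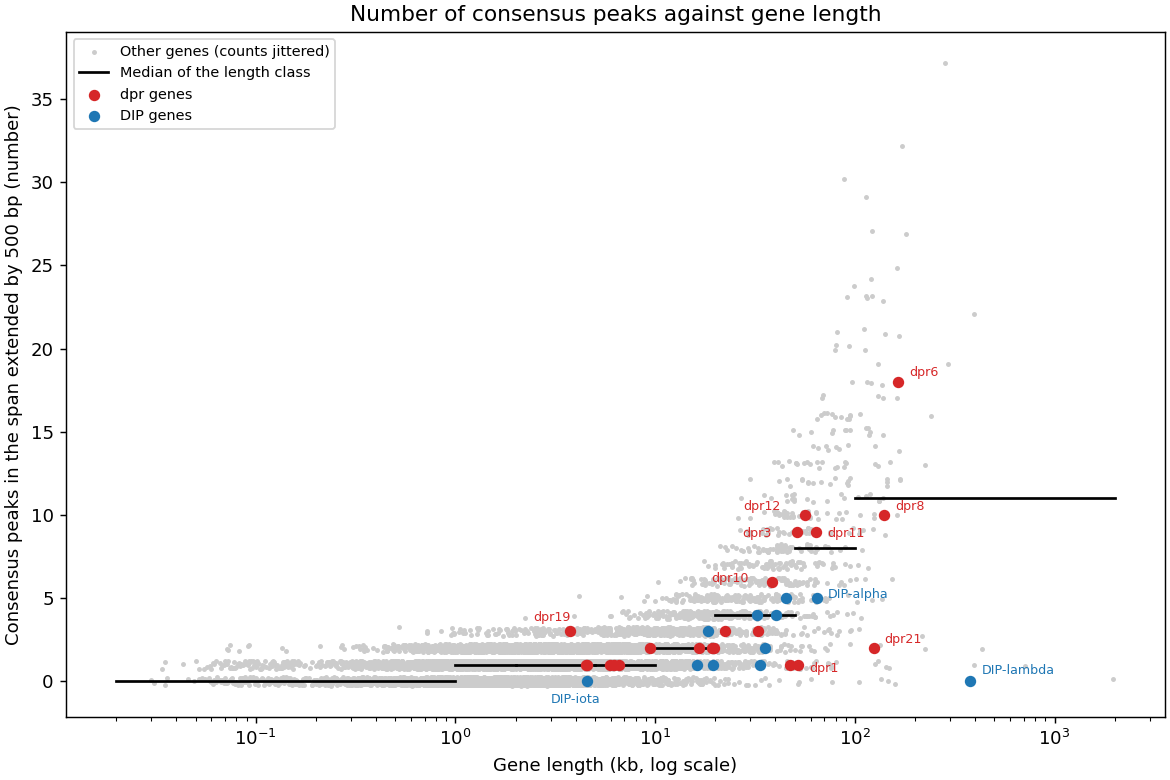
Each point is a gene, with its length in kb on a log scale against its number of consensus peaks, and the black lines are the medians of the 8 length classes. Other genes are grey with counts moved slightly at random, dpr genes red and DIP genes blue. The members lie on both sides of the lines, from dpr6 with 18 peaks above its class median of 11 to DIP-lambda with 0.

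A group of 5 long dpr genes held most of the inside peaks. The longest of them, dpr6 (3L from 9974651 to 10139360, 164.7 kb), had 25 peaks in replicate 1, 19 in replicate 2 and 18 consensus peaks, at percentile 77.5 of genes of at least 100 kb. Its 4 strongest inside peaks lay from 22962 to 75820 bp away from the nearer end. The highest of these, from 10085840 to 10086744, had a fold enrichment of 5.63 and 5.99 and also lies at an end of CG14160, and the next, from 10034422 to 10035965, had 5.56 and 5.53. The end peak of dpr6 had only 4.40 and 3.58. It is a region of 3690 bp that also lies at the ends of vnc, CG6674 and CG42455, and its summits in the replicates lay 2107 bp apart, so that it cannot be assigned to dpr6.

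At dpr12 (2R from 5804712 to 5860831, 56.1 kb), which encodes the Dpr known from γ neurons, there were 10 consensus peaks and no nested gene. They covered 21.9% of the extended span, the largest share among the members of at least 20 kb. Fold enrichment fell over the first 4 peaks from the lower-coordinate end. It was 5.69 and 5.85 at the lower-coordinate end, 5.05 and 5.12 in the next peak (5812671 to 5814495), 4.39 and 4.74 in the third (5820687 to 5822625) and 3.55 and 3.60 in the fourth (5828472 to 5830765). The remaining 6 peaks were weaker, from 1.29 to 2.64 in either replicate, and did not fall in order. The order of the first 4 peaks was the same in both replicates, and the first 5 were from 1757 to 2294 bp wide.

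The other genes with many peaks were dpr8, dpr3 and dpr11. dpr8 (X, 140.1 kb) had 10 consensus peaks, of which 9 lay more than 10 kb from both ends, at percentile 40.4 of its class. Its end peak had 6.21 and 5.92, and its 2 strongest inside peaks had 4.74 and 4.70, and 4.51 and 4.36, the latter at an end of betaNACtes4. dpr3 (2L, 51.1 kb) had 9 consensus peaks, with 6.10 and 6.59 at the end and 4.41 and 4.42 in the strongest inside peak, from 2078641 to 2079587, which also lies at an end of CG12674. dpr11 (3R, 64.2 kb) had 9 as well. All 8 of its inside peaks lay more than 10 kb from the ends and had a mean fold enrichment between 1.33 and 3.78, against 8.89 at its end. dpr3 and dpr11 were both at percentile 60.0 of genes of 50 to 100 kb.

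Genes of much the same length could be nearly bare. dpr1 (2R from 20698483 to 20750442, 52.0 kb), the founding member, had a single consensus peak, across its lower-coordinate end, with 7.07 and 7.22. It lay at percentile 4.57 of the genes of 50 to 100 kb, whose median was 8 peaks, whereas dpr3 and dpr12 with 9 and 10 peaks differ from it in length by less than 10%. In replicate 1 alone, dpr1 had 2 further peaks with a fold enrichment of 1.33 and 1.37. dpr2 (2L, 47.1 kb) and DIP-epsilon (2L, 33.6 kb) also had 1 end peak each and were both at percentile 7.37 of their class. dpr21 (2R from 3066499 to 3191011, 124.5 kb) had 2 consensus peaks, both at its lower-coordinate end, the stronger with 5.38 and 5.68. Of the 10 other genes within 500 kb of it, 1 had a consensus peak. dpr21 itself stood at percentile 15.7 of its class.

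The shorter dpr genes mostly had 1 peak at an end. dpr5, dpr7, dpr14, dpr18 and dpr20, all under 10 kb, had exactly 1 each, with dpr20 the strongest at 7.22 and 7.25 and dpr5 next at 5.95 and 5.96. A count of 1 was also the median of their length classes. It was found in 2151 of 4181 genes of 2 to 5 kb and 689 of 1572 genes of 5 to 10 kb. dpr14 had 3.67 and 3.86 and dpr18 had 5.24 and 5.12, but both peaks also lie at an end of a neighbouring gene. dpr19, the shortest member with 3738 bp, had 3 consensus peaks, all within 500 bp of its ends, at percentile 98.8 of genes of 2 to 5 kb. All 3 also lay at an end of CG33303 or gny. dpr4 had 2 peaks and was at percentile 72.3 of its class. dpr15, dpr16 and dpr17 each had an end peak and 1 inside peak. Among these inside peaks that of dpr16 was the highest, with 3.71 and 3.56. dpr13 (32.8 kb) had an end peak of 6.16 and 5.95 and 2 weak inside peaks with at most 1.68. dpr9 (22.3 kb) had 1 inside peak of 4.19 and 3.67.

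DIP genes had at most 5 consensus peaks. DIP-alpha (X, 64.4 kb) and DIP-gamma (3R, 45.4 kb) had 5 each, DIP-theta and DIP-kappa 4 each, DIP-delta 3 and DIP-beta 2. DIP-eta, DIP-epsilon and DIP-zeta had 1 each, always at the end. The 17 inside peaks of the DIP genes, in 6 genes, had a median mean fold enrichment of 3.31, and the 62 of the dpr genes, in 11 genes, had 2.13. DIP-gamma contributed the strongest inside peak of all members, on 3R from 28960745 to 28961962, 8410 bp from the end, with 6.72 and 6.37. Its inside peaks from 28936787 to 28938349 and from 28948905 to 28949921 had 4.97 and 5.15, and 4.48 and 4.32. At DIP-kappa (2L, 40.5 kb) 3 inside peaks had from 3.06 to 4.14 in either replicate. At DIP-theta (2L, 32.3 kb) the 3 inside peaks had from 1.83 to 2.99, beside an end peak of 6.96 and 7.08. One of them lies next to the microRNA genes mir-963 and mir-964.

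DIP-iota and DIP-lambda had no peak in either replicate. DIP-iota (2L from 6617134 to 6621700, 4567 bp) lay 983 bp from the nearest consensus peak, which had 2.09 and 2.05, and 108 of the 159 other genes within 500 kb had a consensus peak. Of genes of 2 to 5 kb, 74.5% had one. DIP-lambda (2R from 326768 to 705848, 379.1 kb) lay 218997 bp from the nearest consensus peak, with 1.58 and 1.37. Only 4 other genes are annotated within 500 kb of it, and 3 of these had a peak. Of genes of at least 100 kb, 93.3% had a consensus peak. Reads without a unique position were removed by the authors, and whether this step affects the empty span was not tested.

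Known partners were set side by side. dpr12 and DIP-delta, the pair known from the γ lobe, both had open chromatin in MB nuclei. So did most genes of their lengths, with a consensus peak in 98.3% of genes of 50 to 100 kb and 91.6% of genes of 10 to 20 kb. dpr12 was described above. DIP-delta (3L from 5424109 to 5442399, 18.3 kb) had 3 consensus peaks, with 4.40 and 4.05 at its lower-coordinate end, 2.52 and 2.26 in the second and 4.38 and 4.21 in the third, from 5437651 to 5438929. Its end peak was at percentile 47.9 and its peak number at percentile 69.4 of genes of 10 to 20 kb, while the end peak of dpr12 was at percentile 68.6 and its number at percentile 67.6 of genes of 50 to 100 kb. DIP-alpha, the partner of Dpr6 and Dpr10 in motor neurons and their muscles, had its strongest peak inside the gene, from 3530640 to 3531167, with 5.70 and 5.69. Its end peak had 4.54 and 4.38 and also lies at an end of CG2875. dpr10 (3L, 38.7 kb), which follows dpr6 after a gap of 8093 bp without a consensus peak, had an end peak of 5.64 and 5.47 and 5 inside peaks with at most 2.60. DIP-gamma and dpr11, a pair that matches photoreceptors with their target neurons, both had among the strongest end peaks, each with a mean of 8.89. The end peaks of dpr15, dpr16 and dpr17, which encode further partners of DIP-γ, had mean values of 8.32, 8.97 and 5.42. Partners are encoded at separate loci, and the lists give no measure of whether the same neurons have both sites open.

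**Figure D4:**
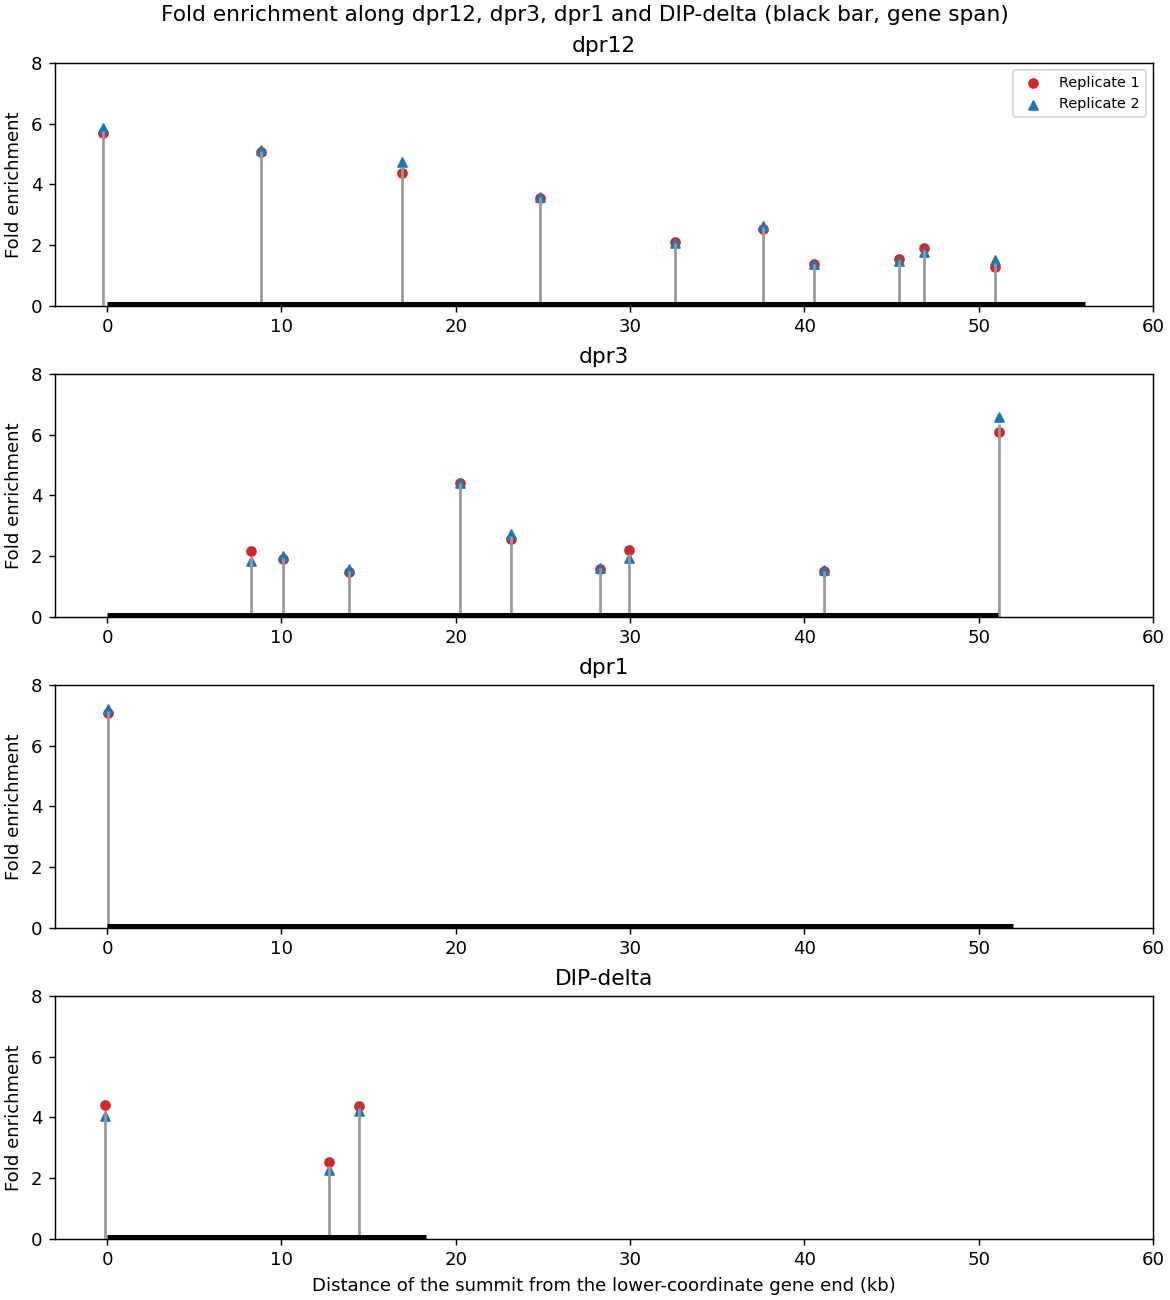
Each panel shows a gene as a black bar in kb from its lower-coordinate end, with the fold enrichment of each consensus peak in replicate 1 (red circles) and replicate 2 (blue triangles), and a grey line from 0 to their mean. dpr12 falls from 5.69 and 5.85 at its end to below 2 in its last 4 peaks, dpr3 has a peak of 4.41 and 4.42 inside, dpr1 has 1 peak, and DIP-delta has 3.

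Some of these peaks also lie at neighbouring genes. Of the 114 peaks, 21 also lay within 500 bp of an end of another gene, 12 of the 35 end peaks and 9 of the 79 inside peaks. In the other 93, no other gene's span extended by 500 bp was reached, so that the member is the only gene the table places there.

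Other immunoglobulin families with a role in neuronal recognition gave a comparison. The Beat and Side proteins are surface proteins that bind each other in the manner of ligand and receptor and guide motor axons. All 14 beat genes and all 8 side genes had a consensus peak near an end. Their strongest end peaks lay above the median of their length class in 12 of 14 and 7 of 8 genes. More peaks than the class median were found in 3 of 14 beat and 4 of 8 side genes. Summed over their spans, the beat genes held 1.00 and the side genes 1.58 consensus peaks per 10 kb. The gene with the most peaks was beat-Ib with 11 in the first family and side-III with 18 in the second. Of 4 further immunoglobulin genes related to the DIPs (Lac, klg, wrapper and Ama), 3 had a consensus peak near an end, and klg had the most peaks with 9. Strong end peaks were therefore also present in the beat and side families. The median percentile in the length class was 93.9 for beat and 89.3 for side genes, against 73.7 for the dpr and DIP genes. No difference between the families was tested.

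The replicates gave much the same picture of the members. Over the 114 consensus peaks, which share libraries and are not independent, fold enrichment on the log2 scale gave a Pearson's r between replicates of 0.992 and a Spearman's rho of 0.990, beside 0.987 and 0.986 over all 14656. The summits in the replicates lay a median of 23.5 bp apart. Replicate 1 had 146 peaks in the members and replicate 2 had 116. All 31 member peaks outside the consensus came from replicate 1, in 15 genes, and none from replicate 2. They were weak, with a median fold enrichment of 1.33 and at most 1.70, the latter in DIP-gamma. dpr6 held 7 of them and dpr12 held 5. The 2 libraries differed in the total of reads kept, and the effect of depth on these peaks was not tested.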

How the data were processed

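ATAC-seq peaks of 2 replicates of MB nuclei were used. Trimming by the authors used Trimmomatic (version 0.39) and alignment to release 6 (dm6) used Bowtie2 (version 2.4.1). Reads were shifted for the transposase cut, multi-locus, mitochondrial, scaffold and duplicate reads were removed, and MACS2 (version 2.1.2) called peaks per replicate. They deposited, per peak, the summit, a fold enrichment (a ratio), p- and q-values on the −log10 scale and a score made from the −log10 q. Overlapping peaks (at least 1 bp) were merged, and each region took the highest fold enrichment of each replicate. Gene spans, extended by 500 bp, came from the RefSeq table for release 6, which lists no strand or sequence. Promoter motifs and sequences were not analysed here. With 1 condition no test was run, and values are descriptions.

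The members and lists were chosen with earlier results of these data known. Every member is accounted for. Fuller values were fixed for members without a peak, the 5 with the most and the 5 with the strongest peaks, the 3 highest and 3 lowest percentiles in a length class, and known partners. Other members' values were chosen after they had been seen. Alternatives were a reciprocal overlap, a −log10 q of at least 10, each replicate alone, other spans and distances, and other backgrounds. The code was checked on planted peaks. Python (version 3.11.15), numpy (version 2.4.6), pandas (version 2.3.3), scipy (version 1.17.1) and matplotlib (version 3.10.9) were used.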

Additional observations from a re-analysis of the deposited data

How the results depend on the processing

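Results were set against alternatives in 52 comparisons. Of these, 47 stayed within 1.5 times a count or within the spread of the replicates, and 5 moved. Reversal was not scored. The bound on counts is wide, and a fall from 9 to 6 members counted as within it. The median mean fold enrichment over all member peaks was 3.17 with the main settings, against 2.69 over all consensus peaks. It was 3.31 with a reciprocal overlap of at least 50% and 3.70 when peaks under a −log10 q of 10 were dropped. With a single replicate it ranged from 2.31 to 3.01. Over dpr and DIP genes together, the main settings gave 0.707 consensus peaks per 10 kb, and the peaks of a single replicate gave 0.720 to 0.906. The count of members with a peak ran from 29, with the peak midpoint in the span, to 31, with the span extended by 1000 bp. Members above the median peak number of their length class ran from 6, with the 200 genes nearest in length, to 10. The ranking of end peaks and its alternatives were added after seeing the data. No paired analysis was possible because the replicates belong to a single group. Peak lists give no depth, so that a site without a peak may be open below the calling threshold.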

Other observations

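Some members are neighbours, and some of the stretches between them also held open chromatin. Between dpr5 and dpr4, on 3R, 27531 bp hold no annotated gene and 5 consensus peaks. These include the peak from 11530914 to 11533265, already counted above at the lower-coordinate end of dpr4. Between dpr17 and dpr15, also on 3R, 27412 bp hold 2 annotated genes and 5 consensus peaks. Between DIP-eta and DIP-theta, on 2L, 8344 bp hold 2 genes and 1 consensus peak, and between dpr6 and dpr10 the 8093 bp hold neither. The end peak of DIP-eta, from 5617111 to 5618541, reaches into the stretch beside that gene. Which gene the other peaks belong to was not tested, and the number of peaks in other stretches of such length was not computed.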
